A study of Mus musculus with 15 samples.

Results

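Genes whose products build ribosomes in the nucleolus were followed in bulk RNA-seq of mouse muscle stem cells while muscle tissue was taken apart. The members were chosen by symbol alone: the Nop, Nol, Utp, Rrp, Gnl, Polr1 and Rpf families, named WD-repeat and DEAD-box helicase genes, and a set of named assembly factors. They came to 73 of the 8059 genes in the table, all of them protein coding. Wdr74, which the choice also named, was not among the listed genes.

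Ribosomes are assembled in the nucleolus, where RNA polymerase I transcribes the ribosomal RNA precursor. Small nucleolar ribonucleoproteins (snoRNPs) of the box C/D class methylate that precursor and those of the box H/ACA class convert chosen uridines to pseudouridine, while helicases, GTPases and scaffold proteins fold and cut it into the small and large subunits. Quiescent muscle stem cells, also called satellite cells, are small cells with little cytoplasm, and growth in ribosome production is a known part of their entry into the cell cycle.

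The labels name 6 bulk samples, from T0 over T15, T30, T60 and T90 to T120. These numbers carry no unit there and are read as minutes. Tissue was intact at T0 and dissociated at T15 to T120, per the labels with collagenase and dispase, and all samples including T0 were fixed with PFA. The table holds 4 libraries each at T15, T60, T120 and T0, and 3 each at T30 and T90, named here by the letters A to D. The sources used here do not state the strain, age or sex of the animals or the way the bulk cells were sorted. No label says that libraries of a time point came from separate animals, so the p-values measure the spread between these libraries, which may be technical.

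Listed counts per library summed to between 8647622 and 27826437 at T60 to T120 and between 2974294 and 10482407 at T0 to T30. A background density was taken in each library as the median, in CPM (counts scaled to the library total) per kilobase of exon, of 7 long genes that muscle stem cells are not known to use. These genes were chosen after their levels in the libraries had been seen. The density ran from 0.0716 to 1.02 CPM per kb at T60 to T120 and from 0.595 to 6.92 at T0 to T30, which was 0.843% to 11.4% and 5.97% to 63.1% of the median listed gene. Depth and background thus moved with time, and the main counts below are given with and without that background. All 10 satellite cell markers were listed, and their summed level lay between 5080 and 7840 CPM in every library. Within that sum Pax7, a marker of satellite cells, averaged 377 ± 80.8 CPM at T120 and 1340 ± 203 CPM at T0 (SD, with a log2 fold change of -1.83 ± 0.16, edgeR adjusted p = 2.54e-09). Myod1, a factor of committed myogenic cells, averaged 936 ± 93.6 CPM at T120 and 81.5 ± 14.5 CPM at T0 (3.52 ± 0.21, edgeR adjusted p = 8.32e-12). The 3 listed of 4 markers of committed myogenic cells summed to 2120 to 2780 CPM at T120, against 489 to 626 CPM at T0. The 7 listed of 8 myofibre markers summed to 215 to 472 CPM at T120, against 479 to 703 CPM at T0. The 4 listed of 7 endothelial markers summed to 254 to 433 CPM at T120, against 121 to 191 CPM at T0. Listed were also 4 of 7 fibro-adipogenic markers (942 to 1240 CPM at T120, 844 to 1560 CPM at T0), 5 of 6 of smooth muscle and pericytes (871 to 1160 and 862 to 1010 CPM), 1 of 7 immune markers (11.2 to 25.2 and 9.44 to 11.9 CPM) and 0 of 4 glial markers. Notch3 is counted in both the satellite cell sum and the smooth muscle and pericyte sum. The part of these marker shifts in the results was not tested, and in bulk RNA fewer cells of a type and less RNA per cell cannot be told apart.

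Ribosome biogenesis genes barely moved in the first 30 minutes and then rose in number and in size up to 120 minutes. A gene was called when its adjusted p was under 0.05 in edgeR's quasi-likelihood test, fitted and adjusted over all 8059 genes, and the share of all listed genes called by the same test stands beside the members' count in each comparison. At T15, 0 members were called up and 0 down, beside 0.658% of all genes up and 0.0124% down. The number with an unadjusted p under 0.05 was also 0, and DESeq2 and limma-voom called 0 as well. At T30 the test called 1 member up and 0 down, beside 3.66% and 1.34% of all genes; 10 members had an unadjusted p under 0.05, and DESeq2 called 2 up and 0 down.

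At T60, 22 members (30.1%) were up and 13 (17.8%) down against T0, beside 27.9% and 28.3% of all genes, so the share that rose was near the background. At T90, 42 members (57.5%) were up and 9 (12.3%) down, beside 33.8% and 35% of all genes. At T120, 54 members (74%) were up and 3 (4.11%) down, beside 37.3% and 39.5% of all genes. The median log2 fold change of the 73 members was 0.12 at T60, 0.40 at T90 and 0.87 at T120, where that of all listed genes was -0.03, -0.05 and -0.08. Called rises of at least 2-fold numbered 5 at T60, 18 at T90 and 32 at T120, a count that was not made for all genes. Every T120 library stood above every T0 library for 54 members, 74% of them, beside 34.9% of all genes. The joint test over the time course called 68 members, beside 85.7% of all genes, and the 5 not called were Gnl3l, Nol12, Rpf2, Utp20 and Wdr36.

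**Figure D1:**
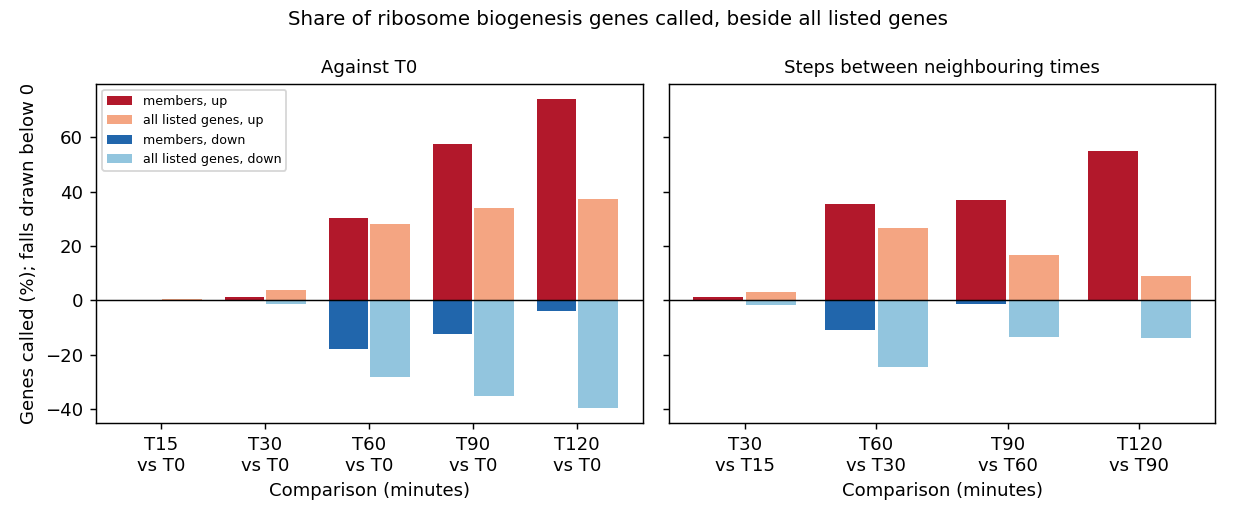
Share of genes called (adjusted p under 0.05, %) in each comparison, with rises above 0 and falls below it, for the 73 members and for all 8059 listed genes. The members' upward share was 30.1% at T60, where that of all genes was 27.9%, and 74% at T120, where that of all genes was 37.3%; their downward share at T120 was 4.11%, beside 39.5%.

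The steps between neighbouring times after T15 compare means without the T0 libraries, which enter only the shared estimates of spread and scaling. At T30 against T15, 1 member was called up and 0 down, beside 3.16% and 1.72% of all genes; 11 members had an unadjusted p under 0.05, and DESeq2 called 3 up. At T60 against T30, 26 (35.6%) were up and 8 (11%) down, beside 26.5% and 24.5%. With the background subtracted, 8 were up in that step, beside 17.3% of all genes. At T90 against T60, 27 (37.0%) were up and 1 (1.37%) down, beside 16.7% and 13.6%. At T120 against T90, 40 (54.8%) were up and 0 down, beside 9.11% and 13.9% of all genes; limma-voom called 1 down there, DESeq2 0, and the 3 members lower with an unadjusted p under 0.05 failed the adjustment. Single libraries weighed on these steps: 17 members were called up at T60 against T30 without library 30A, 17 at T90 against T60 without 90A, and 17 at T120 against T90 without 90B. The shares of all genes in those fits are not given here, so these counts show no excess of the members. In the fit of all 22 libraries the members' median was 0.25, 0.30 and 0.42 on the log2 scale in the 3 comparisons from T30 on. That of all genes was 0.01, -0.02 and -0.04. With the background subtracted the members' median at T60 against T30 was 0.08, below the 0.131 of all genes. In the later steps it was then 0.31 and 0.47, beside -0.039 and -0.024. When libraries were scaled by their listed totals alone, it was -0.09 at T60 against T30, beside -0.333.

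The mean level was highest at T120 for 59 members (80.8%), beside 27.7% of all listed genes. Against T0, Utp14b was first called up at T30, 21 other members at T60, 20 at T90 and 13 at T120, while 18 were never called up. The 22 members up at T60 were also up at T90 and T120. Neither count was made for all genes, and at T60 the members' upward share (30.1%) was near that of all genes (27.9%). Members took 1.42% to 1.58% of the listed counts of a library at T120, against 0.637% to 0.845% at T0.

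**Figure D2:**
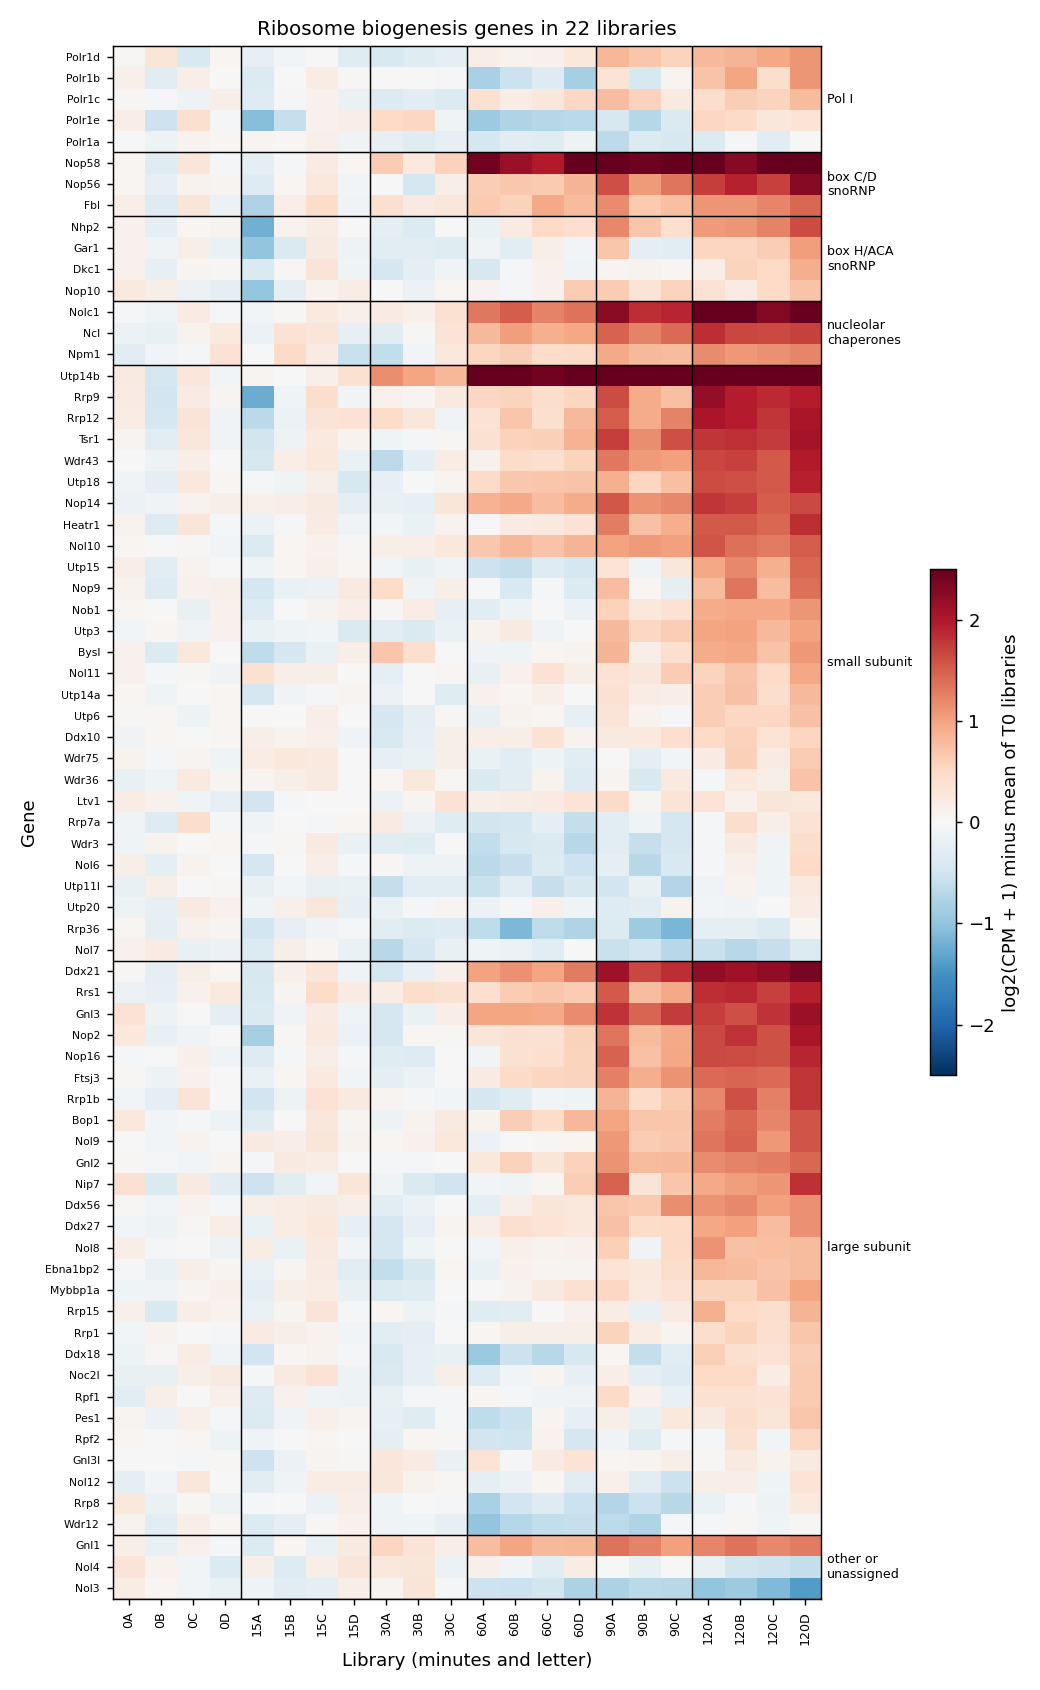
Level of each of the 73 members (lines, grouped by role) in each of the 22 libraries (columns, minutes and letter), as log2(CPM + 1) minus the mean of the T0 libraries; colours end at 2.5 in either direction. Red deepens from T60 to T120 in most genes, and Nol3 is the member that is deepest blue at T120, with a log2 fold change of -1.14.

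Scaling and background bear on the T60 counts more than on those at T120. After the background density was subtracted in proportion to exon length, 12 members (16.4%) were up and 11 (15.1%) down at T60, beside 21.1% and 17.7% of all genes, so the members' upward share was then below that of all genes. At T90, 33 (45.2%) were up and 8 (11%) down, beside 27.6% and 25.7%, and at T120 51 (69.9%) were up and 3 (4.11%) down, beside 32.6% and 31.2%. All 12, 33 and 51 of these rises were also called without the subtraction, as were 8, 7 and 2 of the falls. The medians after subtraction were 0.04, 0.39 and 0.83. When libraries were scaled by their listed totals alone, the median of all listed genes was -0.354 at T60, -0.463 at T90 and -0.461 at T120. The members' median was then -0.21, -0.01 and 0.48, still above that of all genes. At T60 11 members (15.1%) were up and 31 (42.5%) down, beside 16.4% and 49.9% of all genes. At T90 27 (37.0%) were up and 19 (26.0%) down, beside 22% and 52.1%, and at T120 42 (57.5%) were up and 9 (12.3%) down, beside 25.7% and 52.4%. That scaling ended the upward calls of Bop1, Ddx27, Fbl, Ftsj3, Gnl2, Npm1, Polr1c, Rrp12, Rrs1, Tsr1 and Wdr43 at T60 and of Ddx10, Ddx18, Dkc1, Gar1, Noc2l, Pes1, Polr1c, Rpf1, Rrp1, Rrp15, Utp6 and Wdr75 at T120.

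**Figure D3:**
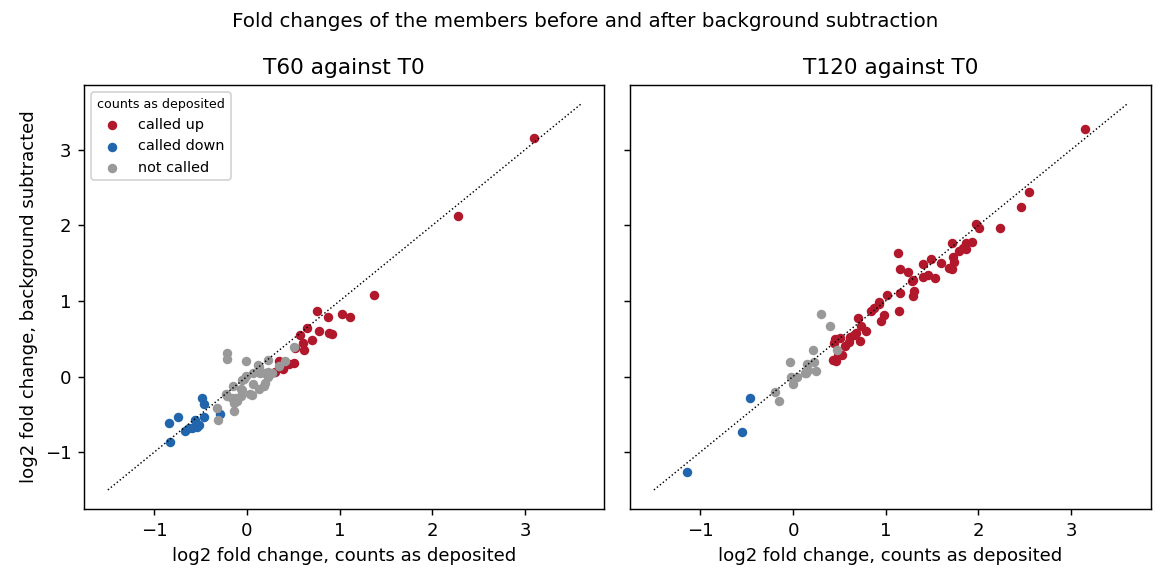
Log2 fold change of each member with the background density subtracted (vertical axis) against that from the counts as deposited (horizontal axis), at T60 and at T120 against T0; the dotted line marks equality and the colour gives the call from the deposited counts. At T120 most points lie near the line and 51 of 54 rises stay called, whereas at T60 most rises sit below it and 12 of 22 stay called.

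The core proteins of the box C/D snoRNP had risen by T60. Nop58, a scaffold protein of that particle, measured 151, 119, 181 and 141 CPM at T0, then 124, 143, 169 and 152 in the T15 libraries and 227, 173 and 219 in those of T30. It measured 784, 659, 585 and 848 at T60, 1090, 789 and 946 at T90, and 962, 716, 870 and 911 at T120. All 11 libraries from T60 on were above all 11 earlier ones, and at T120 against T90 no change was called (log2 -0.12 ± 0.16, adjusted p = 0.635). Its log2 fold change against T0 was 2.28 ± 0.16 (SE) at T60, 2.67 ± 0.17 at T90 and 2.55 ± 0.16 at T120 (edgeR adjusted p = 1.81e-10, 2.52e-11 and 1.49e-11). At T30 it was 0.48, which was not called, although it was with DESeq2 (0.50, adjusted p = 0.038) and after background subtraction (0.75, adjusted p = 0.0303).

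Nop56, the partner scaffold of Nop58, had 81.1, 67.8, 83.5 and 82.3 CPM at T0, 120, 126, 124 and 142 at T60, and 263, 299, 257 and 381 at T120. The 3 sets did not overlap, and Nop56 rose by 0.70 ± 0.15 at T60 and 1.93 ± 0.15 at T120 on the log2 scale (edgeR adjusted p = 0.000502 and 4.81e-10). Fbl, which encodes fibrillarin, the methyltransferase of the particle, had 32.4, 23.0, 35.8 and 26.2 CPM at T0, 46.1, 43.9, 56.9 and 50.8 at T60, and 63.3, 63.6, 68.7 and 79.5 at T120. Its sets did not overlap either, with changes of 0.76 ± 0.20 and 1.24 ± 0.20 (edgeR adjusted p = 0.00248 and 8.6e-06).

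Of the box H/ACA core, 3 of the 4 genes rose at T120. Nhp2, an RNA-binding protein of that particle, measured 49.9, 51.7, 56.7 and 74.8 CPM at T120, against 25.4, 19.8, 24.3 and 24.9 CPM at T0. Gar1, a small subunit of the enzyme, measured 28.8, 28.9, 30.3 and 41.1 CPM at T120, against 21.1, 18.4, 21.8 and 17.2 CPM at T0. Dkc1, the pseudouridine synthase dyskerin, measured 85.9, 113, 108 and 145 CPM at T120, against 81.9, 66.2, 80.2 and 77.9 CPM at T0. In each of these genes every T120 library was above every T0 library, by the smallest gap in Dkc1 (85.9 CPM in 120A, against 81.9 CPM in 0A). The log2 fold changes at T120 were 1.30 ± 0.24, 0.73 ± 0.23 and 0.56 ± 0.15 (edgeR adjusted p = 5.45e-05, 0.00788 and 0.0019). Nop10, the smallest core protein, overlapped, with 22.4, 20.0, 24.7 and 28.9 CPM at T120, against 20.5, 19.1, 15.4 and 14.4 CPM at T0 (0.47 ± 0.21, edgeR adjusted p = 0.0505). This value lay near the threshold and passed it with DESeq2 (0.53, adjusted p = 0.0222). After background subtraction Nop10 was not called (0.35, edgeR adjusted p = 0.271). At T60 none of the 4 was called, and their log2 fold changes ran from -0.11 to 0.27, where the 3 box C/D proteins ran from 0.70 to 2.28; the difference between the particles was not tested.

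Nolc1, a chaperone that binds both classes of snoRNP in the nucleolus, had 116, 112, 139 and 116 CPM at T0, 303, 346, 286 and 311 at T60, 578, 433 and 452 at T90, and 696, 689, 597 and 672 at T120. No library of one of these times overlapped with those of another. It rose by 1.37 ± 0.11 at T60 and 2.46 ± 0.11 at T120, the smallest adjusted p of the members at T120 (edgeR, 2.27e-09 and 5.58e-13). Ncl, nucleolin, a nucleolar RNA-binding protein, had 1410, 1370, 1660 and 1840 CPM at T0, 2750, 3220, 2880 and 3030 at T60, and 5570, 4980, 4880 and 5120 at T120. Per length it was the highest member, with 504 CPM per kb at T120, against 154 CPM per kb at T0. It rose by 0.92 ± 0.15 and 1.71 ± 0.15 (edgeR adjusted p = 2.35e-05 and 1.99e-09). Npm1, nucleophosmin, a nucleolar histone and ribosome chaperone, had 575, 534, 561 and 585 CPM at T120, against 211, 241, 246 and 322 CPM at T0, with no overlap (1.14 ± 0.18, edgeR adjusted p = 8.75e-06). Its rise at T60 (0.51 ± 0.18, edgeR adjusted p = 0.0208) was lost after background subtraction (0.18, adjusted p = 0.256). Without 0A, 0B or 60B it was 0.42, 0.48 and 0.47, not called but close in size (adjusted p = 0.0743, 0.0574 and 0.0526).

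**Figure D4:**
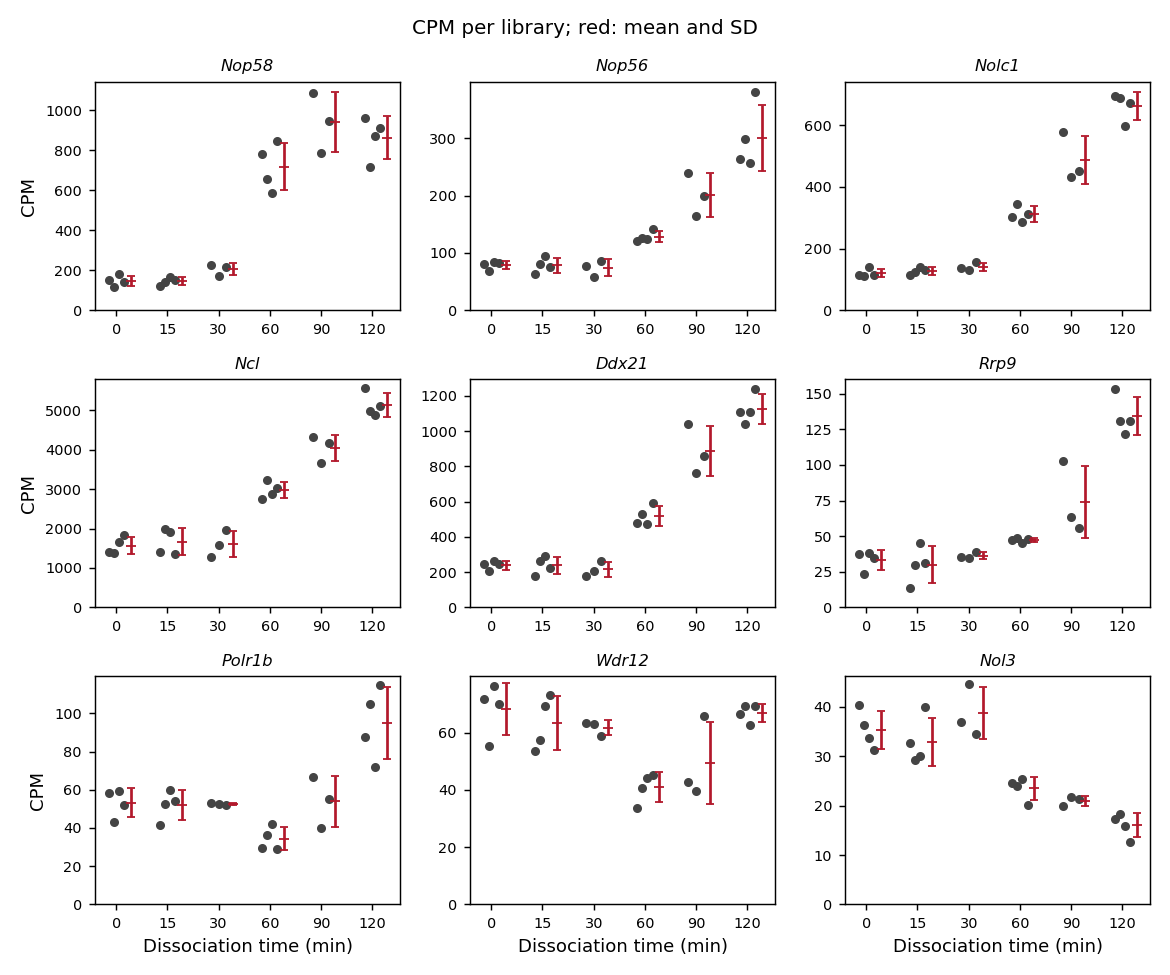
Level in CPM of 9 members in every library (points) by dissociation time in minutes, with mean and SD in red; the vertical axes start at 0. Nop58 is raised from T60 on, Nop56, Nolc1, Ncl, Ddx21 and Rrp9 climb up to T120, Polr1b and Wdr12 are lowest at T60, and Nol3 falls.

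RNA polymerase I did not move as a unit among the 5 subunit genes chosen by symbol. Its second largest subunit gene, Polr1b, had 58.1, 43.1, 59.5 and 52.2 CPM at T0, 29.7, 36.3, 41.9 and 29.2 at T60, 66.8, 39.9 and 55.1 at T90, and 87.4, 105, 72.1 and 115 at T120. The T60 libraries lay below and the T120 libraries above all T0 libraries, and those of T90 overlapped with T0. It fell by 0.63 on the log2 scale at T60 (SE 0.17, edgeR adjusted p = 0.00349) and rose by 0.84 ± 0.17 at T120 (edgeR adjusted p = 0.000143). The fall had an adjusted p of 0.107 without the 5 libraries of highest background, and a log2 fold change of -0.46.

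Polr1a, the largest subunit, measured 166, 208, 174 and 210 CPM at T120, against 210, 194, 223 and 218 CPM at T0, and these overlapped (-0.15 ± 0.10, edgeR adjusted p = 0.152; -0.32 and adjusted p = 0.0216 after background subtraction). It was lower at T90 (-0.47 ± 0.11, edgeR adjusted p = 0.000568), where 133, 166 and 160 CPM lay below every T0 library. Polr1e, a subunit that takes part in initiation, had 23.1, 13.9, 27.4 and 19.7 CPM at T0, 10.4, 11.8, 12.1 and 12.5 at T60 and 29.5, 29.0, 25.2 and 26.3 at T120. The T60 libraries were below all T0 libraries (-0.84 ± 0.24, edgeR adjusted p = 0.00551; -0.61 and adjusted p = 0.106 after background subtraction), and T120 overlapped with T0 (0.40 ± 0.24, edgeR adjusted p = 0.131; 0.75 and adjusted p = 0.0177 without the 5 libraries of highest background). The subunits shared with RNA polymerase III rose: Polr1d measured 54.0, 55.9, 60.5 and 66.9 CPM at T120, against 31.2, 38.1, 23.2 and 31.5 CPM at T0 (0.93 ± 0.12, edgeR adjusted p = 7.23e-07). Polr1c measured 43.1, 48.8, 46.7 and 55.4 CPM at T120, against 32.4, 30.4, 28.8 and 34.9 CPM at T0 (0.61 ± 0.13, edgeR adjusted p = 0.000179). Both were above T0 in every T120 library. The genes Cd3eap and Twistnb, which carry other symbols and were counted in the wider list below, rose as well. Their log2 fold changes at T120 were 1.59 ± 0.16 and 1.0 ± 0.16 (edgeR adjusted p = 1.9e-08 and 6.7e-06).

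Of the 28 small subunit genes 7 were up and 6 down at T60, 14 up and 5 down at T90, and 19 up and 1 down at T120, with a median log2 fold change of 0.01, 0.30 and 0.82. The shares up were 25.0%, 50.0% and 67.9%, beside 27.9%, 33.8% and 37.3% of all genes, so at T60 the class was near the background. Rrp9, the protein that marks the U3 snoRNP, measured 153, 131, 122 and 131 CPM at T120, against 37.8, 23.1, 38 and 34.5 CPM at T0 (2.01 ± 0.25, edgeR adjusted p = 2.57e-07). Rrp12, which accompanies export of the subunit in yeast, measured 155, 148, 130 and 155 CPM at T120, against 42.2, 27.3, 46.6 and 34.8 CPM at T0 (1.97 ± 0.21, edgeR adjusted p = 2.56e-08). Tsr1, a late maturation factor, measured 296, 304, 287 and 362 CPM at T120, against 88.8, 70.8, 103 and 79.8 CPM at T0 (1.87 ± 0.16, edgeR adjusted p = 9.67e-10). Each T120 library of these genes was above every T0 library. Tsr1 shares 32.3% of its exon bases with Srr on the opposite strand, and the sources used here do not state whether counting used strand.

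Apart from Utp14b, described below, the other small subunit genes called up at T120 ranged from Wdr75 (0.44) to Wdr43 (1.74), with Heatr1, a scaffold of the early processome, at 1.60 and Nop14 at 1.68. The 8 not called ran from -0.19 (Rrp36) to 0.30 (Wdr36).

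Late maturation factors of this class gave unequal values. Nob1, the nuclease that makes the end of the mature small subunit RNA, measured 58.0, 59.2, 59.6 and 65.8 CPM at T120, against 31.0, 30.3, 26.3 and 32.5 CPM at T0 (1.01 ± 0.12, edgeR adjusted p = 1.94e-07). Bysl, which binds the early and late particle, measured 60.4, 62.0, 51.9 and 67.6 CPM at T120, against 33.7, 24.5, 37.7 and 31.1 CPM at T0 (0.93 ± 0.18, edgeR adjusted p = 0.000106). Ltv1, a factor of the particle on its way to the cytoplasm, measured 64.4, 54.3, 62.1 and 60.9 CPM at T120, against 57.8, 54.6, 46.9 and 43.6 CPM at T0. Nob1 and Bysl did not overlap with T0 and Ltv1 did (0.25 ± 0.13, edgeR adjusted p = 0.0831). With DESeq2 the change of Ltv1 was called (0.31, adjusted p = 0.0398). After background subtraction it was not (0.07, edgeR adjusted p = 0.693).

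Utp15, a WD-repeat protein of the complex that first binds the precursor RNA, had 38.4, 27.6, 36.3 and 34.3 CPM at T0, 23.5, 22.1, 27.1 and 25.0 at T60 and 67.4, 78.8, 63.3 and 94.0 at T120. Every T60 library was below and every T120 library above all T0 libraries. Its log2 fold change was -0.48 ± 0.13 at T60 and 1.15 ± 0.13 at T120 (edgeR adjusted p = 0.00457 and 1.23e-07), and the fall was not called after background subtraction (-0.28, adjusted p = 0.686). Nol7, a nucleolar protein placed in the small subunit class, was the one of this class that fell at T120, with 39.1, 35.2, 38.7 and 45.7 CPM, against 62.9, 67.3, 51.1 and 52.0 CPM at T0 and no overlap (-0.55 ± 0.13, edgeR adjusted p = 0.000723). It shares 16.5% of its exon bases with Ranbp9 on the opposite strand.

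Utp14b gave the largest rise of any member. Its product is the counterpart of a small subunit processome protein, from a retroposed copy of the X-linked Utp14a that is known in mouse for its need in sperm formation. It had 67.4, 41.9, 69.6 and 54.8 CPM at T0, then 60.2, 57.0, 62.7 and 74.5 in the T15 libraries and 130, 115 and 103 in those of T30. Later it had 475, 554, 308 and 650 at T60, 736, 674 and 623 at T90, and 530, 510, 535 and 489 at T120. All T30 libraries were above all T0 and T15 libraries, and all later ones above those of T30. Utp14b was the member called at T30 (0.99, edgeR adjusted p = 0.00213), and with the 5 libraries of highest background left out, so that T30 had 1 library, the log2 fold change was 1.12 and the adjusted p 0.0583. Against T0 it changed by 3.09 ± 0.19 at T60 and 3.15 ± 0.19 at T120 (edgeR adjusted p = 3.11e-11 and 9.5e-12).

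The gene lies inside Acsl3, a fatty acid ligase gene on the same strand, at chr1:78658038-78671512 within chr1:78657825-78707743 (GRCm38, GENCODE vM21), and 244 of its exon bases are shared with it. Acsl3 rose too, to 255, 248, 230 and 235 CPM at T120, against 36.1, 24.0, 22.6 and 23.7 CPM at T0 (log2 fold change 3.18), so reads of the 2 genes may not be separable. Utp14a, the copy on the X chromosome, measured 96.3, 105, 85.9 and 111 CPM at T120, against 65.1, 58.2, 62.9 and 64.8 CPM at T0, with no overlap (0.66 ± 0.10, edgeR adjusted p = 7.62e-06).

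The promoters of the members were searched because so many rose together, and because Myc, a transcription factor known to bind the E-box CACGTG and to act on ribosome biogenesis genes, rose as well. Myc had a mean of 154 ± 33.7 CPM (SD, 4 libraries) at T0, then 194 ± 42.0 and 186 ± 23.6 in the T15 and T30 libraries, 549 ± 109 at T60, 1090 ± 246 at T90 and 1220 ± 92.3 at T120, a log2 fold change of 2.99 ± 0.20 at T120. RefSeq promoters of 250 bases before to 50 after the start (GRCm38.p6) were at hand for 60 of the 73 members, 1 of them under another symbol. CACGTG, the same on both strands, stood in 12 of the 60 (20.0%), in 11.3% of 5983 listed genes' promoters and in 7.24% of all 27025. Of the 47 members with a promoter that rose at T120, 8 (17.0%) held it. Of the other 13 members 4 did (Ltv1, Rpf2, Rrp7a and Utp20), which is a larger share. CCGGAAG, a core bound by ETS factors, stood on either strand in 23 members (38.3%), 20.2% of listed genes and 9.12% of all. The NRF1 motif, searched as an exact palindrome, stood in 0 members, 2.42% of listed genes and 0.977% of all.

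In 5 members the E-box lay wholly before the start, and these stretches are shown, chosen for holding the motif after the strongest risers were found mostly to lack it. They run 5′ to 3′ on the gene's strand, from RefSeq on GRCm38.p6, with the E-box in capitals. Utp14b is on the plus strand at chr1:78658320-78658439, Nop2 on the plus strand at chr6:125131763-125131882, Utp18 on the minus strand at chr11:93885767-93885843, Nol11 on the minus strand at chr11:107189382-107189481 and Rrp7a on the minus strand at chr15:83122932-83123051. None overlaps an exon of GENCODE vM21. The stretch of Utp14b lies within introns of both Acsl3 and Utp14b there, since GENCODE starts Utp14b upstream of the RefSeq start used here.
Utp14b: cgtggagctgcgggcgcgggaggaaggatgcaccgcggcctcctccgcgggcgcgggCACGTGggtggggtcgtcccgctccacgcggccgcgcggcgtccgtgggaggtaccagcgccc
Nop2: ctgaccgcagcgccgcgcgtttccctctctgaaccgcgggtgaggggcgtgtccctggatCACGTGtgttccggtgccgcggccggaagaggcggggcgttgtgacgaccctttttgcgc
Utp18: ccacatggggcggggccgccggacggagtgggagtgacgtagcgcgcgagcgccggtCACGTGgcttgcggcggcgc
Nol11: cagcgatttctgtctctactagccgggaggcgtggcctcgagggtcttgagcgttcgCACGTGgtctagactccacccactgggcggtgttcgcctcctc
Rrp7a: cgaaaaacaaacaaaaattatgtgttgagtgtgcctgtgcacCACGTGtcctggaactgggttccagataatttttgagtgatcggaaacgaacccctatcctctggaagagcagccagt
The E-box starts 63 bases before the RefSeq start of Utp14b, and so after its GENCODE start, 60 before that of Nop2, 20 before that of Utp18, 43 before that of Nol11 and 208 before that of Rrp7a. At T120 the log2 fold changes of these genes were 3.15, 1.79, 1.71, 0.70 and 0.22, and Rrp7a was the one not called. A match is a description of the letters and not a measured binding site.

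Of the 27 large subunit genes 7 were up and 3 down at T60, 17 up and 2 down at T90, and 22 up and 0 down at T120, with a median of 0.13, 0.38 and 0.87. The shares up were 25.9%, 63.0% and 81.5%, beside the same 27.9%, 33.8% and 37.3% of all genes, and again near the background at T60. Ddx21, a helicase that acts on ribosomal RNA and its transcription, had 244, 204, 264 and 248 CPM at T0, 478, 527, 473 and 593 at T60, and 1110, 1040, 1110 and 1240 at T120. The sets did not overlap, and it rose by 1.11 ± 0.15 and 2.23 ± 0.15 (edgeR adjusted p = 2.81e-06 and 5.93e-11). Rrs1, which helps place the small ribosomal RNA of the large subunit, measured 112, 115, 101 and 119 CPM at T120, against 27.1, 26.3, 32.7 and 36.1 CPM at T0 (1.87 ± 0.17, edgeR adjusted p = 3.86e-09). Gnl3, the GTPase nucleostemin, known from stem cells and tumour cells, had 126, 89.5, 98.6 and 84.5 CPM at T0, 197, 196, 191 and 224 at T60, and 329, 304, 345 and 441 at T120. Neither gene overlapped with T0 at T120, and Gnl3 rose by 1.02 ± 0.15 at T60 and 1.83 ± 0.16 at T120 (edgeR adjusted p = 1.08e-05 and 1.26e-09). Its paralog Gnl3l measured 52.4, 59.8, 54.3 and 60 CPM at T120, against 51.7, 50.8, 50.0 and 51.8 CPM at T0, and was not called at any time although the T120 libraries were all above those of T0 (0.15 ± 0.12 at T120, edgeR adjusted p = 0.282).

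Pes1, Bop1 and Wdr12, which form the PeBoW complex needed for processing of the large subunit RNA, moved apart. Bop1 measured 99.1, 111, 95.0 and 123 CPM at T120, against 48.5, 38.4, 38.8 and 37.0 CPM at T0, with no overlap (1.40 ± 0.15, edgeR adjusted p = 5.28e-08). Pes1 measured 86.9, 101, 91.5 and 121 CPM at T120, against 78.1, 67.3, 80.7 and 71.4 CPM at T0 (0.43 ± 0.15, edgeR adjusted p = 0.013), and after background subtraction it was not called (0.22, adjusted p = 0.328). Wdr12 had 71.9, 55.5, 76.5 and 69.9 CPM at T0, 33.8, 40.8, 44.2 and 45.2 at T60, and 66.4, 69.4, 62.8 and 69.4 at T120. Its T60 libraries were below all T0 libraries and its T120 libraries among them. The log2 fold change was -0.74 ± 0.15 at T60 (edgeR adjusted p = 0.000228; -0.53 and adjusted p = 0.44 after background subtraction) and -0.03 ± 0.14 at T120 (edgeR adjusted p = 0.86).

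Other large subunit genes called up at T120 reached from Rpf1 (0.45) to Nop2 (1.79), an RNA methyltransferase, with Nop16 at 1.73, the helicase gene Ddx27 at 0.98 and the paralogs Rrp1b and Rrp1 at 1.49 ± 0.17 and 0.53 ± 0.10. The 5 not called ran from -0.03 (Wdr12) to 0.23 (Rpf2). The helicase gene Ddx18 turned: it had 21.6, 24.2, 27.1 and 22.1 CPM at T0, 11.9, 16.0, 14.2 and 17.6 at T60, and 36.3, 31.7, 30.5 and 36.6 at T120. Its T60 libraries lay below and its T120 libraries above those of T0. The changes were -0.67 ± 0.16 and 0.51 ± 0.16 (edgeR adjusted p = 0.0016 and 0.00665), and the rise had an adjusted p of 0.0884 after background subtraction at the same size.

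The 13 members down at T60 (17.8%) were a smaller share than the 28.3% of all genes that were down. Of the 13, 3 were up at T120 (Polr1b, Ddx18 and Utp15), 9 were no longer called, and Nol3 was still down. Those 3 are 4.11% of the members, beside 1.09% of all genes with both calls. After background subtraction Polr1b kept both calls, while Utp15 lost its fall (edgeR adjusted p = 0.686) and Ddx18 its rise (edgeR adjusted p = 0.0884). Of the 13, 12 were called up in the step to T90 or the step to T120, which is 16.4% of the members, beside 3.66% of all genes. Beside those described, they were Rrp36 (-0.83 ± 0.18 at T60, -0.19 ± 0.18 at T120), Rrp8, a methyltransferase of the large subunit RNA (-0.56 ± 0.13 and -0.02 ± 0.13), Nol6 (-0.54 ± 0.15 and 0.14 ± 0.15), Wdr3 (-0.52 ± 0.12 and 0.16 ± 0.12), Rrp7a (-0.46 ± 0.15 and 0.22 ± 0.15) and Utp11l (-0.46 ± 0.12 and 0.04 ± 0.12), with Polr1a, Polr1e and Wdr12. Background subtraction left 8 of the 13 called down at T60: Ddx18, Nol3, Nol6, Polr1a, Polr1b, Rrp36, Rrp8 and Wdr3. Without the 5 libraries of highest background 6 members were down at T60, beside 21% of all genes.

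**Figure D5:**
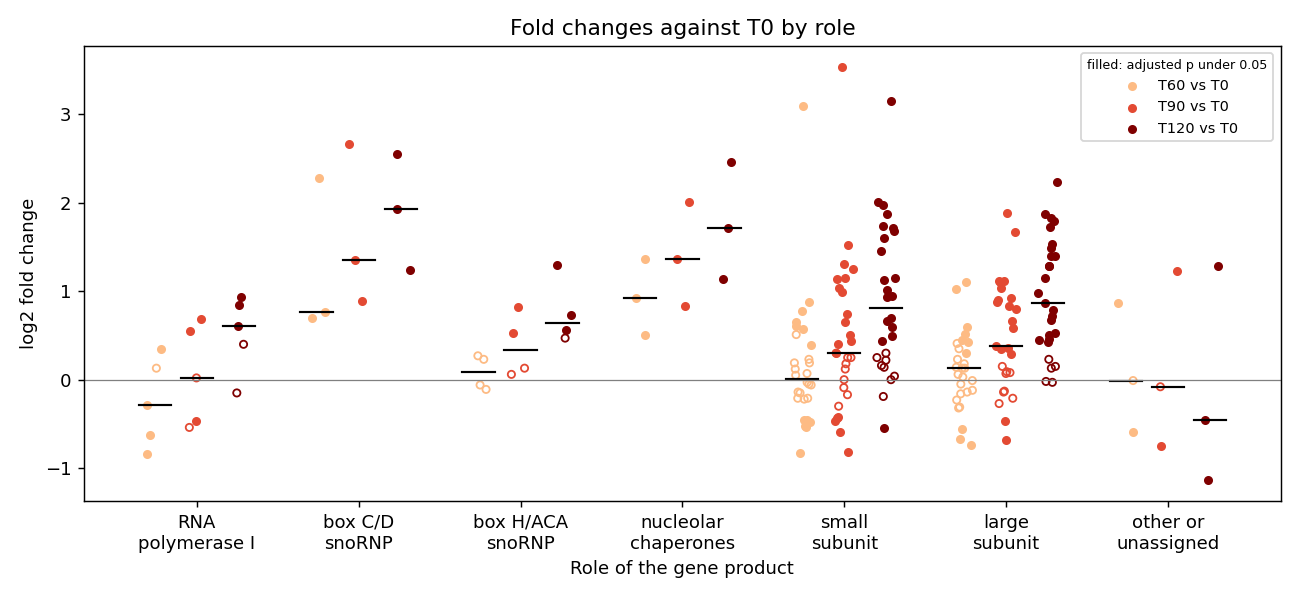
Log2 fold change of each member against T0 at T60, T90 and T120 by role; filled points have an adjusted p under 0.05, open points do not, and bars mark medians. All box C/D and chaperone genes are above 0 at T60, the medians of RNA polymerase I and the box H/ACA genes are -0.29 and 0.08 there, and at T120 the median is above 0 in each class but the last, at -0.46.

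The members placed outside ribosome assembly, or with no role assigned, went in other directions. Nol3, an inhibitor of cell death despite its nucleolar name, measured 17.3, 18.4, 15.8 and 12.7 CPM at T120, against 40.3, 36.3, 33.8 and 31.3 CPM at T0, with no overlap (-1.14 ± 0.14, edgeR adjusted p = 2.41e-07). It shares 48.2% of its exon bases with an unlisted gene on the opposite strand. Nol4 measured 29.6, 24.3, 23.1 and 22 CPM at T120, against 42.0, 36, 31.8 and 26.4 CPM at T0, which overlapped (-0.46 ± 0.16, edgeR adjusted p = 0.0153). Gnl1, a GTPase, measured 76.9, 84.8, 75.6 and 80.9 CPM at T120, against 35.9, 28.2, 34.9 and 31.2 CPM at T0, with no overlap (1.29 ± 0.12, edgeR adjusted p = 7.52e-09). Thus 2 of the 3 members called down at T120 were ones not assigned to assembly. After background subtraction Nol4 was not called (-0.29, edgeR adjusted p = 0.289). The members called down were then Nol3, Nol7 and Polr1a.

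Within 7 members (Dkc1, Gnl3, Ncl, Nop56, Nop58, Tsr1 and Wdr43) lie genes for small nucleolar RNAs, the guides of the snoRNPs. Their median log2 fold change at T120 was 1.83, with a range of 0.56 to 2.55, and that of the other 66 members 0.76, with a range of -1.14 to 3.15. Of these small RNA genes 6 were listed (Snord11 and Snord70 in Nop58, Snord110 in Nop56, Snord82 in Ncl, Snord19 and Snord69 in Gnl3), and Snord19 at T90 was the one call against T0. It measured 22.3, 10.7 and 28.9 CPM at T90, against 10.2, 7.82, 12 and 6.2 CPM at T0, which overlapped (1.22 ± 0.39, edgeR adjusted p = 0.00898). At T120 none was called by edgeR, with log2 fold changes from -0.88 ± 0.68 in Snord82 (adjusted p = 0.245) to 0.66 ± 0.37 in Snord19 (adjusted p = 0.114). Snord19 shares 76 bases and Snord69 80 bases with annotated Gnl3 exons, so their reads may not be separable from those of Gnl3.

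A wider list of 119 other assembly factors, from cofactors of RNA polymerase I to the exosome, was set beside the members. Of its 98 listed genes 0 were called at T15 and 1, which fell, at T30. At T60 the list had 18 up and 26 down, at T90 it had 43 up and 17 down, and 67 were up and 11 down at T120. The shares up were 18.4%, 43.9% and 68.4%, beside 27.9%, 33.8% and 37.3% of all genes, and those down 26.5%, 17.3% and 11.2%, beside 28.3%, 35% and 39.5%. Its median log2 fold changes were -0.05, -0.09, -0.06, 0.20 and 0.68 in order of time. The highest at T120 were Cirh1a (2.14), Mak16 (1.99) and Noc4l (1.95), factors of small subunit (Cirh1a and Noc4l) and large subunit (Mak16) assembly. The lowest were Ttf1, which ends transcription by RNA polymerase I, with means of 12.2 CPM at T120, against 52.4 CPM at T0 (-2.11 ± 0.22, edgeR adjusted p = 2.57e-08), Ddx55 (-1.44 ± 0.26) and Lsm6 (-1.37 ± 0.11).

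In the authors' deposited table, with an adjusted p under 0.05, 23 members were up and 13 down at T60, 44 up and 8 down at T90, and 55 up and 3 down at T120. Of those rises 22, 42 and 54 were the ones called here, as were 13, 8 and 3 of the falls. The share of all listed genes called in the authors' table was not counted, so these values compare the calls on members only.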

How the data were processed

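Bulk RNA-seq libraries of mouse muscle stem cells were made from fixed samples with a stranded total RNA kit and sequenced as single-end reads, per the labels' protocols. Per the submitters' processing notes, tools named for the series are cutadapt 1.11, featureCounts 1.4.5-p3 and DESeq2 1.18.1, with build mm10, and no role or order is given. The sources used here do not state the aligner, the annotation release or the strand setting. The deposited table gives counts, in whole numbers, of 22 libraries by Ensembl gene, and 0 columns of single libraries were left unmatched to the labels. Its lowest mean normalized count is 98.4, so weakly expressed genes are absent and column totals are not depth. The authors also deposited normalized values, a score equal to the count over 1 size factor per library, used here as an alternative scaling. Log2 fold changes and adjusted p-values are given per the file headers as well, and were set beside the values computed here. The other 9 samples of the labels were not analysed here.

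The test was that of edgeR 4.0.16 under R 4.3.3 (TMM factors, filterByExpr, which kept all 8059 genes, and the quasi-likelihood F test with Benjamini-Hochberg adjustment over those genes). All 22 libraries shared the fit, with time point as the factor. An adjusted p under 0.05 was called. The common biological coefficient of variation was 0.192. Levels are CPM with TMM factors, and SEs were taken from the size of the log2 fold change and its F. TMM assumes that most genes do not change, while most listed genes were called from T60 on. Neighbouring steps share a time point, and comparisons with T0 share the T0 libraries. Names, positions and exon lengths came from GENCODE vM21, which held 8049 of the listed identifiers. The pipeline was tested on simulated data.

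The members, the role classes and the gene lists were chosen with earlier results of these data known. Rrp8 was moved to the large subunit class by its role after group means had been seen, which moves its falls at T60 and T90 between classes. Named with values were members of fixed complexes, the 10 with the largest change at T120, the extremes of each class, those called at T30, and those called in opposite directions. Gnl3l, Utp14a, Nol4, the other members down at T60 and the examples given with class ranges fall outside that rule and were named after their values were seen. Alternatives were 3 other scalings, DESeq2 1.42.0, limma-voom (limma 3.58.1), other count filters, a replicate block, fits on the time points compared, background subtraction in full and by 0.5, and leaving out libraries.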

Additional observations from a re-analysis of the deposited data

Results flagged for a closer look

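In 7 of 132 groups of 4 libraries tested among the 33 named members, the highest or lowest library stood far from the others (Dixon's critical value 0.829), where chance alone gives about 1 in 20. Gar1 measured 41.1 CPM in library 120D, against 28.8 to 30.3 CPM in the other T120 libraries. Ltv1 measured 64.5 CPM in 60D, against 57.0 to 58.2 CPM in the others of T60. It also stood apart in 15A, with 36 CPM, against 48.8 to 51.1 CPM in the others of T15. Nop10 measured 27.3 CPM in 60D, against 16.9 to 18.5 CPM in the rest of that time point. At T0, Bop1 measured 48.5 CPM in 0A, against 37.0 to 38.8 CPM elsewhere. Nolc1 measured 139 CPM in 0C, against 112 to 116 CPM. Nop56 was low in 0B, with 67.8 CPM, against 81.1 to 83.5 CPM.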

How the results depend on the processing

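Counts of members called at T120 against T0 stayed within 1.5 times under every alternative, except falls with library totals only (9, beside 3). That scaling gave 11 up and 31 down at T60, 27 up and 19 down at T90, and 2 up at T30 against T15. At T60 against T30 it gave 10 up and 26 down, beside 12.8% and 45.4% of all genes. Up at T30 were 2 with DESeq2, with the authors' size factors and with all or 0.5 of the background subtracted, and 0 without the 5 libraries of highest background. Up at T30 against T15 were 3 with DESeq2, 4 and 3 with all and 0.5 of the background subtracted, and 0 without the 5 libraries. Background subtraction gave 12 up at T60, beside 21.1% of all genes, and 22 up at T120 against T90, beside 3.75%. At T60 against T30 it gave 8 up, beside 17.3% of all genes, and 13 with 0.5 subtracted, beside 23.2%. In that step the members' upward share was then below that of all genes. Without the 5 libraries, 6 were down at T60, beside 21% of all genes. T30 then had 1 library, which the fit assumes to vary like the other groups, so calls at T60 against T30 are not given. The members' median in that step was then 0.12, beside 0.25 in the main fit, and that of all genes was -0.013. At T120 against T90, 25 were up when those 2 time points alone were fitted, and limma-voom called 1 down. Among named genes Nob1 at T90 reversed to -0.01 with library totals only, and Wdr12 at T60 against T30 to 0.49 with background subtracted. The causes were not tested.

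Leaving out each library in turn gave 1 to 2 up and 0 to 2 down at T30, 17 to 24 up and 12 to 15 down at T60, 33 to 44 up and 7 to 11 down at T90, and 54 to 56 up and 2 to 3 down at T120. In the steps it gave 0 to 5 up and 0 to 3 down at T30 against T15 (0 up without 30A, 5 without 15D), 17 to 28 up and 6 to 12 down at T60 against T30, 17 to 29 up and 0 to 1 down at T90 against T60 (0 without 90C), and 17 to 49 up and 0 to 1 down at T120 against T90. The shares of all genes in these fits are not given here, so the ranges compare counts of members only.

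The letters were not taken to pair the libraries, since 26 of 51 pairs of libraries with the same letter had a correlation of deviations over 0.1 and the others did not (median 0.116, range -0.575 to 0.467; median -0.0209 for libraries of different letters). With the letter as a replicate block, 2 members were up at T30 against T15, and at T120 against T0 54 were up and 3 down; no other count of calls moved by over 1.5 times. Small changes at T15 to T60 are limited by the lower totals and higher background of the T0 to T30 libraries.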
